A study of Mus musculus with 3 samples.

Results

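The C/EBP (CCAAT/enhancer-binding protein) genes Cebpa, Cebpb, Cebpd, Cebpe, Cebpg and Cebpz were described in open chromatin maps of mouse hematopoietic stem cells (HSCs). The 6 genes were chosen by name from 21887 protein-coding genes, and every deposited peak that touched a gene body or the 50 kb on either side of it was taken. These peaks fell into 19 of the 24981 regions that the 3 deposited peak lists form when overlapping peaks are joined. The HSCs came from adult mice of genotype Mx1-Cre-/-;mTORflox/flox that had been given poly(I:C), an inducer of interferon. Without Cre the floxed mTOR alleles stay intact, so all 3 groups are mTOR wild type and all share the poly(I:C) exposure. The sorted cells were cultured in StemSpan SFEM and received the solvent DMSO, the mTOR kinase inhibitor AZD2014 at 200 nM, or rapamycin, an allosteric mTOR inhibitor, at 1 µM. Neither the time of exposure nor any pooling of mice is stated in the labels. Open chromatin was measured with ATAC-seq, which reads where a transposase can reach the DNA, in 50000 cells for each library, with 1 library per condition. There is therefore no replicate spread and no test. A difference between lists compares these libraries and not the conditions, and a peak missing from a list only failed to pass the authors' threshold there. In such bulk libraries, fewer cells with an open site and less opening per cell cannot be told apart.

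C/EBP proteins are basic leucine zipper (bZIP) transcription factors that bind DNA as dimers. C/EBPα is required for the step from multipotent progenitors to granulocyte-monocyte progenitors and restrains proliferation, C/EBPβ serves granulocyte production under stress, C/EBPδ is induced in inflammation, and C/EBPε drives late granulocyte maturation. C/EBPγ lacks a strong activation domain and acts through heterodimers, among others with ATF4. Cebpz shares the name only, since its product is not a bZIP protein and its yeast homologue works in ribosome assembly. The choice between long and short isoforms of C/EBPα and C/EBPβ is made at translation and is known to respond to mTOR signalling, a level that ATAC-seq does not read.

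The promoters of Cebpa, Cebpb and Cebpg are the 3 members' promoters that the sequence table matched, and a peak covered all 300 bases of each in every list. They are shown together with the window at Ndufaf7, since it spans the upper-coordinate end of Cebpz. The sequences are from RefSeq on GRCm38.p6, 250 bases before to 50 after the gene start, 5′ to 3′ on the gene's strand. Capitals mark matches to 8 motifs searched on both strands: TTGCGCAA (the C/EBP palindrome), the looser TTGCNNAA that contains it, TTGCATCA (the C/EBP-ATF composite), TGACGTCA (the cAMP response element, CRE), CCAAT (the CCAAT box), the TATA box form TATAAA, and the 5-base forms TGACG and TTGCG, which lie within the CRE and the C/EBP palindrome and were added after the sequences had been read. The windows are chr7:35119043-35119342 (plus strand) for Cebpa, chr2:167688665-167688964 (plus) for Cebpb, chr7:35056517-35056816 (minus) for Cebpg and chr17:78936885-78937184 (plus) for Ndufaf7.
Cebpa: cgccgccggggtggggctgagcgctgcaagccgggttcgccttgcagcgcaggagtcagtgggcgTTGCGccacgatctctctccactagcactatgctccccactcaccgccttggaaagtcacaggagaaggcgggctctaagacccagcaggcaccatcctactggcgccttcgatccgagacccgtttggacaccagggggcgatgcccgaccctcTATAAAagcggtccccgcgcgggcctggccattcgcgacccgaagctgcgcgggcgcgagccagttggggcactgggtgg
Cebpb: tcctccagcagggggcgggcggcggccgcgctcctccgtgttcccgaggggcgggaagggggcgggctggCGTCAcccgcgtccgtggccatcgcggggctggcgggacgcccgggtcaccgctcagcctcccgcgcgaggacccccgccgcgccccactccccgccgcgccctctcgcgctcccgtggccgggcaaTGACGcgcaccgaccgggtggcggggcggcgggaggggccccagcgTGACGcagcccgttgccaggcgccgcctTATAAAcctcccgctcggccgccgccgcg
Cebpg: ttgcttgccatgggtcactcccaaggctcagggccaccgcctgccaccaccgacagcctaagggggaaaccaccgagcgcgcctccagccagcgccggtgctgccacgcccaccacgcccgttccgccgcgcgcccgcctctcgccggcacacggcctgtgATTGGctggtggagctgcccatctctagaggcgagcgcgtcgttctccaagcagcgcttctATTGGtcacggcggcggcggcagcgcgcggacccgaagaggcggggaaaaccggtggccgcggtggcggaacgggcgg
Ndufaf7: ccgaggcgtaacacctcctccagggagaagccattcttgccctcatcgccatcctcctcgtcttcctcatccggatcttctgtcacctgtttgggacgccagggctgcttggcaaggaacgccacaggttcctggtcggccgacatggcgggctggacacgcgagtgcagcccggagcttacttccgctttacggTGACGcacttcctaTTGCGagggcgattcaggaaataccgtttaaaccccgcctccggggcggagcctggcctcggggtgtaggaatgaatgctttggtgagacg

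None of the 4 windows held TTGCGCAA, TTGCNNAA, TTGCATCA or TGACGTCA. Those letters were present, in that order, in 0.370%, 7.26%, 0.360% and 3.83% of the 10011 promoter windows with a peak in all 3 lists, and in 0.183%, 10.8%, 0.895% and 1.79% of all 32851 windows of the table. Cebpa held TATAAA from base -30 and TTGCG from base -185, counted from the annotated start. Cebpb held TATAAA from base 22 after the start and TGACG at 3 places, from bases -180, -53 and -7, the first of them on the opposite strand. Cebpg held CCAAT on the opposite strand at 2 places, from bases -89 and -28, and no TATAAA. The Ndufaf7 window held TGACG from base -55 and TTGCG from base -41. Among the 10011 windows with a peak in all 3 lists, TATAAA was present in 5.14%, CCAAT in 40.4%, TGACG in 36.5% and TTGCG in 31.3%, and among all windows in 13.6%, 37.4%, 20.8% and 17.4%. G and C made up 67.3% of the Cebpa, 80.7% of the Cebpb, 71.7% of the Cebpg and 60.7% of the Ndufaf7 window, against a median of 62.7% over those 10011 windows. The matches describe the letters of the reference and not bound sites.

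The windows of the 6 genes held 16 peaks in the DMSO list, 18 in the AZD2014 list and 15 in the rapamycin list, with each peak counted once where the neighbouring windows of Cebpa and Cebpg overlap. The whole lists held 17189, 21321 and 18233 peaks, with median widths of 610, 700 and 710 bp. Read depth is unknown. All 6 genes had a window peak in each list, as did 74.8% of protein-coding genes under DMSO, 78.0% with AZD2014 and 76.2% under rapamycin. A gene-end peak, within 1 kb of either end of a gene, was present at 5 of the 6 genes in the DMSO and the AZD2014 list and at 4 in the rapamycin list, against 46.0%, 49.5% and 46.9% of all protein-coding genes. Cebpa, Cebpb, Cebpg and Cebpz had one in every list, Cebpd had one under DMSO and AZD2014, and Cebpe had none. The scores are the authors' own and were ranked within each list, rank 1 being the highest score.

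**Figure D1:**
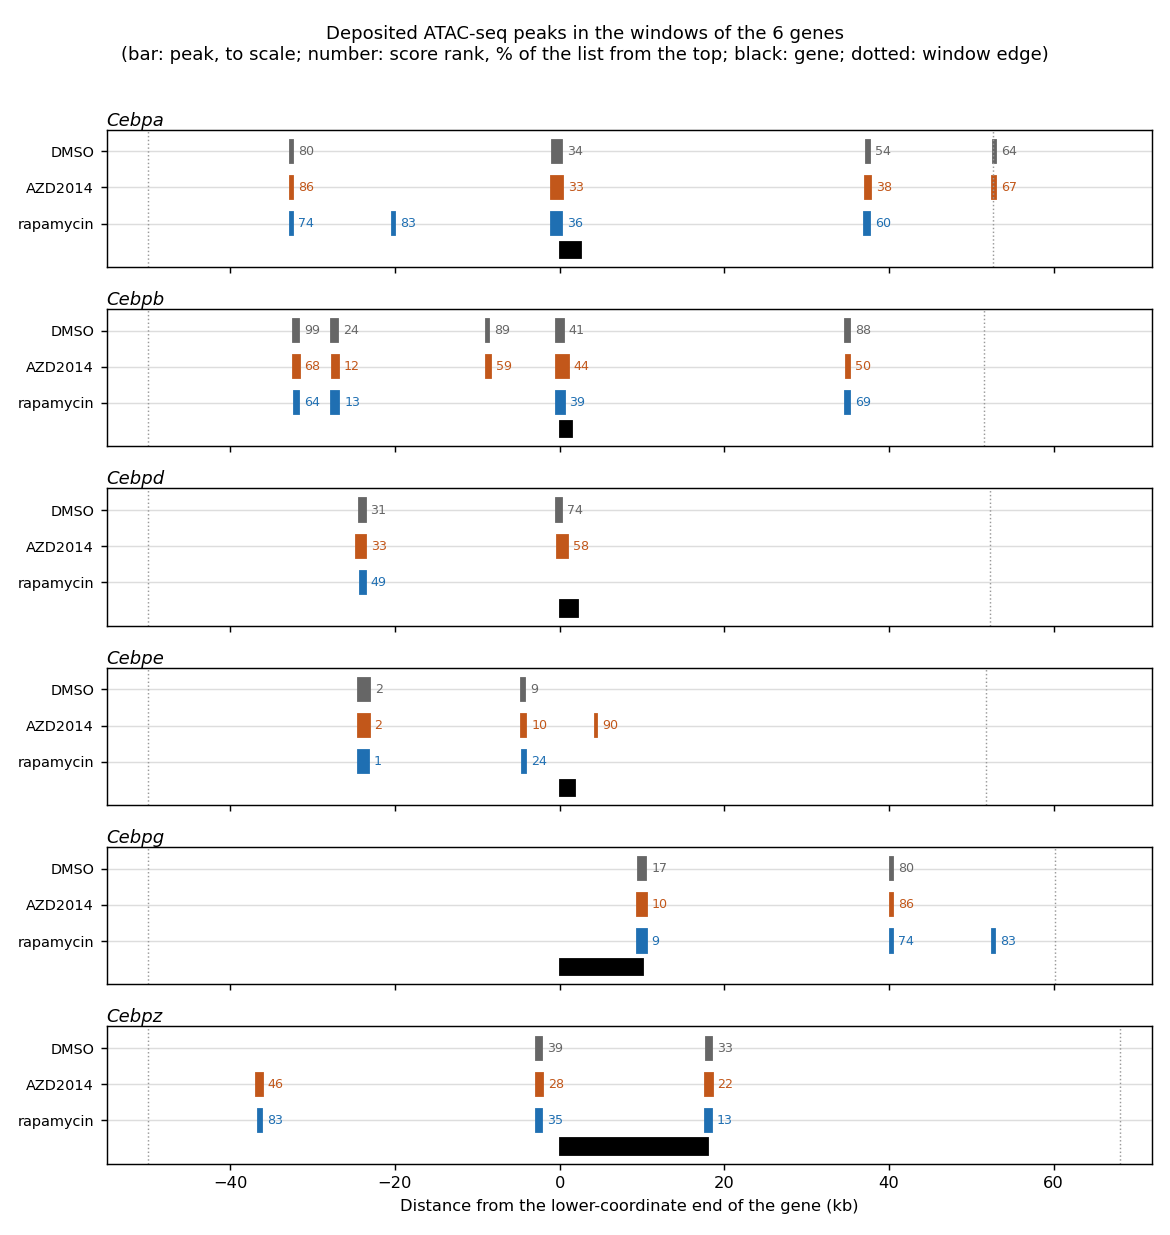
Peaks of the 3 lists along each gene, with the distance in kb from the lower-coordinate end of the gene on the x axis. Bars are peaks drawn to scale, numbers give the score rank as a percentage of the list from the top, black boxes are gene bodies and dotted lines the window edges. Cebpd has no gene-end peak under rapamycin, and Cebpe has none in any list but a highly ranked peak beside the gene.

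At Cebpa (chromosome 7, 35119293 to 35121928, mm10) the same number of peaks, 4, was found in each list, but not at the same places. The promoter peak stood at rank 5815 under DMSO (33.8% from the top), 7088 under AZD2014 (33.2%) and 6543 under rapamycin (35.9%). It was 1233, 1443 and 1322 bp wide, so the promoter was listed as open in all 3 libraries. A peak centred 37.5 kb from the lower-coordinate end under DMSO, downstream on the plus strand, lay at about the distance at which the mouse gene's myeloid enhancer is known. That enhancer drives Cebpa in myeloid progenitors, and the rule for the window was set wide enough to reach it. The peak had rank 9326 under DMSO (54.3%), 8201 with AZD2014 (38.5%) and 10927 under rapamycin (59.9%). Among peaks away from any protein-coding gene end it stood at 30.6% of 8162 under DMSO, 15.8% of 11515 under AZD2014 and 37.2% of 9069 under rapamycin. It was thus placed highest under AZD2014 and lowest under rapamycin. Its width was 567, 760 and 802 bp in the same order, and it lies in the body of a predicted long noncoding RNA gene.

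The other Cebpa peaks were weak. A peak 32.6 kb before the gene under DMSO (-32.6 kb) stood at 80.5% of the DMSO list, 86.2% of the AZD2014 list and 74.1% of the rapamycin list, and it also lies in the Cebpg window. A rapamycin peak (35098938 to 35099328, rank 15097, 82.8%) had no partner elsewhere. Absence was common at that level, since 58.7% of rapamycin peaks in the same 10% band of the list lacked a DMSO partner and 38.0% an AZD2014 partner. A peak 52.8 kb from the lower end was present under DMSO (63.8%) and AZD2014 (66.8%) and absent under rapamycin, as were 19.3% of DMSO and 35.9% of AZD2014 peaks in the same 10% bands. It reached into the window by less than 1 kb, 49.975 kb from the gene under DMSO. The nearest peak outside the window was the Cebpg promoter peak, 62.3 kb away.

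Cebpb (chromosome 2, 167688915 to 167690432) had 5 window peaks under DMSO, 5 with AZD2014 and 4 under rapamycin. The promoter peak had rank 7005 under DMSO (40.8%), 9286 with AZD2014 (43.6%) and 7178 under rapamycin (39.4%). Its width was 906, 1590 and 1025 bp. The AZD2014 peak covered the whole DMSO peak and ran 630 bp further into the gene, which has a length of 1518 bp in all. It was 1.75 times as wide as under DMSO, and 21.0% of all regions common to the 3 lists were at least 1.5 times as wide under AZD2014, with a median ratio of 1.23.

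Of the distal Cebpb peaks, all 4 stood nearer the top of the AZD2014 list than of the DMSO list. The share of all peaks that did so was not counted. At 35.0 kb downstream the peak had rank 15104 under DMSO (87.9%), 10754 with AZD2014 (50.4%) and 12671 under rapamycin (69.5%). At -8.80 kb, between Tmem189 and Cebpb, a peak stood at 88.5% of the DMSO list and 59.3% of the AZD2014 list, with none under rapamycin. In the same 10% bands of those lists, 48.8% of DMSO peaks and 16.5% of AZD2014 peaks had no rapamycin partner. The peak at -32.0 kb, inside Tmem189, was near the lower limit under DMSO (score 50.63, 99.2%) and stood at 68.2% and 64.4% under AZD2014 and rapamycin. The peak at -27.3 kb belongs to an end of Tmem189, a gene of plasmalogen synthesis, and ranked at 24.1%, 11.8% and 12.7%. The AZD2014 list is the longest, so the same rank is a smaller percentage there. Ranks over a shared set of regions follow further on.

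Cebpd (chromosome 16, 15887286 to 15889545) was the member whose own gene-end peak differed between lists. Under DMSO a peak of 661 bp lay over the lower-coordinate end with score 74.92 and rank 12667 (73.7%). Under AZD2014 the peak was 1357 bp wide, with score 108.32 and rank 12369 (58.0%), and ran 755 bp further into the gene. It also lay within 1 kb of an end of Spidr, the neighbouring gene of a DNA repair scaffold protein. Under rapamycin none was listed. The DMSO and AZD2014 peaks shared 602 bp, which is 91.1% of the former and 44.4% of the latter. In the same 10% band of the list, 33.5% of DMSO peaks had no rapamycin partner, and 16.5% of AZD2014 peaks in theirs had none.

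The Cebpd window held a further peak at the end of Mzt2, a gene of a microtubule nucleation complex, centred at -24.0 kb under DMSO. It ranked 5345 under DMSO (31.1%), 6973 with AZD2014 (32.7%) and 8971 under rapamycin (49.2%), with widths of 809, 1198 and 768 bp. No other peak lay near. The nearest one outside the window was 210.2 kb from the gene in the DMSO list, the farthest for any of the 6 genes.

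Cebpe (chromosome 14, 54710363 to 54712174) had no gene-end peak in any list, yet one of its neighbours in the window was among the highest-ranked distal peaks of each library. This peak (54705718 to 54706215 under DMSO) was centred at -4.40 kb from the lower-coordinate end and at -6.21 kb from the upper one. It had rank 1589 under DMSO (9.24%), 2176 with AZD2014 (10.2%) and 4430 under rapamycin (24.3%). Among peaks away from gene ends it was number 214 of 8162, 272 of 11515 and 656 of 9069, or 2.62%, 2.36% and 7.23% from the top. An enhancer downstream of Cebpe that serves granulocyte maturation is known in mouse, and whether the peak is that element was not tested. An AZD2014 peak of 304 bp at 4.44 kb (54714653 to 54714956) was near the lower limit of the list (score 56.93, 90.4%) and had no partner, like 79.6% of AZD2014 peaks of its 10% band against DMSO and 76.0% against rapamycin. The last peak lay at the end of Acin1, a gene of RNA processing and apoptotic chromatin condensation, and at a predicted gene, with rank 372, 442 and 194.

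Cebpg (chromosome 7, 35046422 to 35056566, minus strand) carried the best-ranked promoter peak of the family. Its rank was 3002 under DMSO (17.5%), 2131 with AZD2014 (9.99%) and 1575 under rapamycin (8.64%). The widths were 1072, 1156 and 1141 bp, and each drug's peak covered the whole DMSO peak. A predicted gene, listed as protein-coding, spans the same peak, so the signal cannot be assigned to either of them. The remaining peaks of the Cebpg window are those between Cebpg and Cebpa described above, and none lay on the other side of the gene.

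Cebpz (chromosome 17, 78919003 to 78937070) had its gene-end peak where it meets Ndufaf7, a gene for assembly of respiratory complex I. The ends of these genes are so close that 1 peak covers both. It ranked 5658 under DMSO (32.9%), 4724 with AZD2014 (22.2%) and 2420 under rapamycin (13.3%), and was 723, 966 and 832 bp wide. At the other end, a peak at the start of Cebpzos, which overlaps Cebpz, stood at 38.9%, 28.4% and 35.2% of the lists. At -36.4 kb, the start of Eif2ak2, the gene of the RNA-activated kinase PKR, had a peak under AZD2014 (787 bp, score 149.82, 46.2%) and under rapamycin (468 bp, score 63.51, 82.6%) and none under DMSO. Of AZD2014 peaks in that 10% band of the list, 8.54% had no DMSO partner, and of rapamycin peaks in theirs 58.7%.

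**Figure D2:**
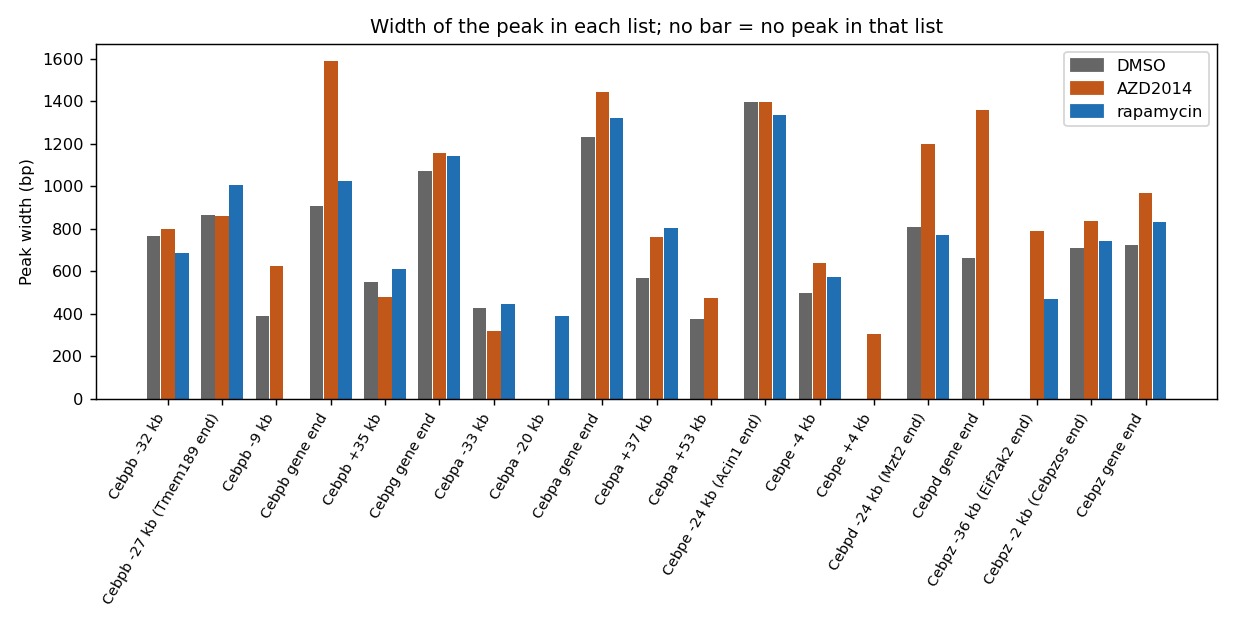
Peak width in bp on the y axis for each of the 19 regions, with 1 bar per list and no bar where a list has no peak. AZD2014 has the widest peak at all 5 member gene ends with a peak, from 966 bp at Cebpz to 1590 bp at Cebpb. The share of all gene ends where it does was not counted. Its median width ratio to DMSO is 1.17 over the 13 common C/EBP regions and 1.23 over all common regions.

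Of the 19 regions, 13 held a peak in all 3 lists, where 54.7% of all regions did. Under DMSO and AZD2014 without rapamycin there were 3, against 5.63% of all regions: the Cebpd gene end, the Cebpb peak at -8.80 kb and the Cebpa peak at the window edge. The reverse arrangement, DMSO and rapamycin without AZD2014, was seen at 0 of 19 and at 1.80% of all regions. Both drugs without DMSO accounted for 1 region, at Eif2ak2, against 8.63%. Regions of 1 list numbered 0 for DMSO, 1 for AZD2014 and 1 for rapamycin, against 5.80%, 16.0% and 7.42% of all regions. With lists of one length, the AZD2014 peaks near Cebpe and at -32.6 kb from Cebpa drop out. The window peaks then number 16, 16 and 15, and 12 regions are common to all lists. The count of 3 rests on few regions, and at the Cebpd gene end the DMSO and AZD2014 peaks no longer count as shared when 50% of both must overlap.

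For ranks on a shared scale, the 13670 regions present in all 3 lists were ranked by score within each list, and 13 of them lay in the windows of the 6 genes. These 13 include regions at ends of Tmem189, Acin1, Mzt2 and Cebpzos and not of a member, and the Cebpz end is shared with Ndufaf7. A difference of 10 percentage points or more was counted. Under AZD2014, 2 of the 13 stood at least that much nearer the top than under DMSO, where 19.1% of all common regions did, and 2 farther from it, where 19.2% did. Under rapamycin 4 stood nearer the top, against 20.3%, and 2 farther from it, also against 20.3%. The median difference was 4.42 points for AZD2014 and 1.70 for rapamycin, with medians over all common regions of -0.07 and -0.05. As a group the regions thus lay close to the background in either drug, with differences in both directions. None was at least 1.5 times as wide under rapamycin, against 15.4% of common regions, and 1, the Cebpb promoter, under AZD2014.

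**Figure D3:**
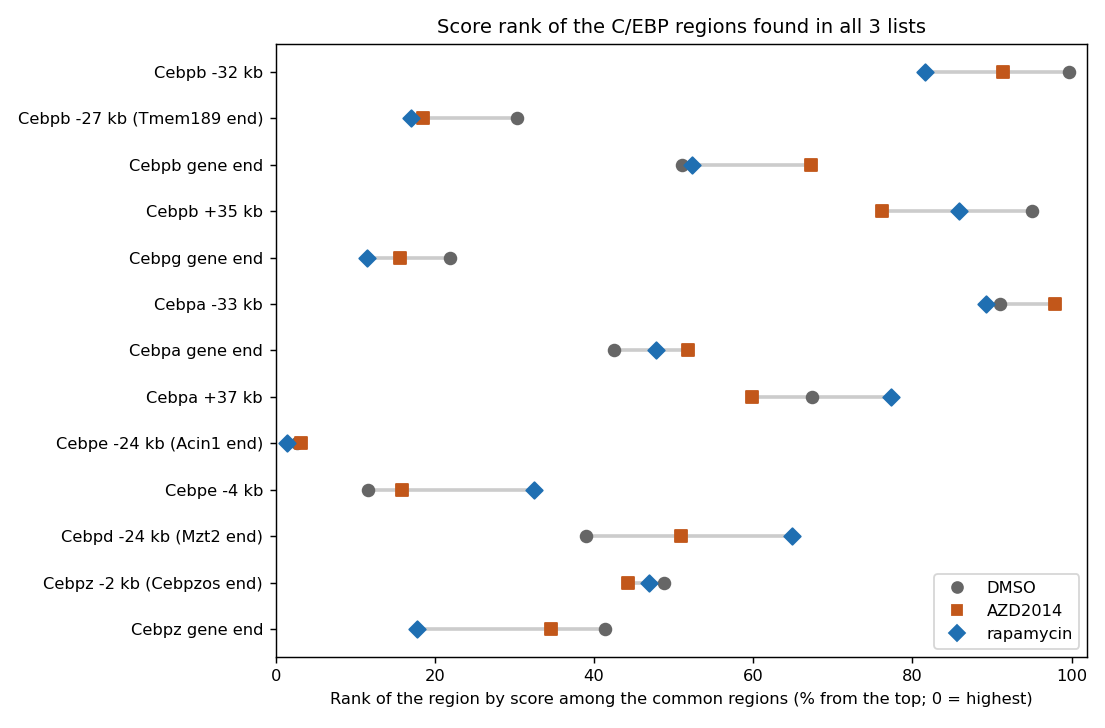
Score rank of the 13 regions among the 13670 common regions, as a percentage from the top on the x axis, with 1 marker per list. The Cebpe region at -4.40 kb stands at 11.6% for DMSO and 32.4% for rapamycin, and the Cebpz gene end at 41.3% and 17.7%.

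The promoters differed among themselves. The Cebpz and Ndufaf7 region stood at 41.3% under DMSO, 34.6% with AZD2014 and 17.7% under rapamycin, so that it was 23.6 points nearer the top under rapamycin. Among common regions of the same 25% band of the DMSO ranks, 16.9% were 10 points or more nearer the top there. The Cebpg promoter stood at 21.9%, 15.6% and 11.5%, which is 10.4 points under rapamycin, just past the limit, and 8.30 points when ranked in lists of one length. In the highest 25% of DMSO ranks, where regions in the first 10% have no room for it, 3.07% were 10 points or more nearer the top under rapamycin. The Cebpg difference of 6.36 under AZD2014 was inside the limit. The Cebpa promoter lay farther from the top under either drug, at 42.5%, 51.8% and 47.8%, within 10 points both times. The Cebpb promoter stood at 51.1%, 67.3% and 52.3%, a difference of -16.2 points under AZD2014 and -1.27 under rapamycin. In the same 25% band, 30.0% of common regions were 10 points or more farther from the top under AZD2014. Thus the AZD2014 peak there was the widest of the 3 and the lowest in rank.

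The distal regions also differed in direction among themselves. The Cebpe region at -4.40 kb stood at 11.6% under DMSO, 15.9% with AZD2014 and 32.4% under rapamycin, a difference of -20.8 points under rapamycin. In the 25% of common regions that ranked highest under DMSO, 12.5% were 10 points or more farther from the top under rapamycin. The Cebpa region at 37.5 kb stood at 67.3%, 59.8% and 77.3%, or 7.53 points nearer the top under AZD2014 and -9.95 points under rapamycin, both inside the limit. In its 25% band, 22.7% of common regions were 10 points or more nearer the top under AZD2014, and 31.9% that much farther from it under rapamycin. The Mzt2 end near Cebpd differed by -11.9 points under AZD2014 and -25.9 under rapamycin, and in its 25% band 24.9% and 25.8% of common regions were 10 points or more farther from the top. The 3 distal Cebpb regions common to all lists lay nearer the top under either drug, by 8.27, 11.8 and 18.8 points under AZD2014 and by 18.0, 13.3 and 9.14 under rapamycin, in order of position. The middle one is the end of Tmem189. In its 25% band, 16.8% of common regions were 10 points or more nearer the top under AZD2014 and 16.9% under rapamycin. Since the other 2 start from the lowest 10% of the DMSO ranks, there was little room below them. In the lowest 25%, 33.9% of regions were 10 points or more nearer the top under AZD2014 and 37.4% under rapamycin. AZD2014 and rapamycin are set against the same DMSO library, and their doses differ, so their values are given side by side without a comparison of the compounds.

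**Figure D4:**
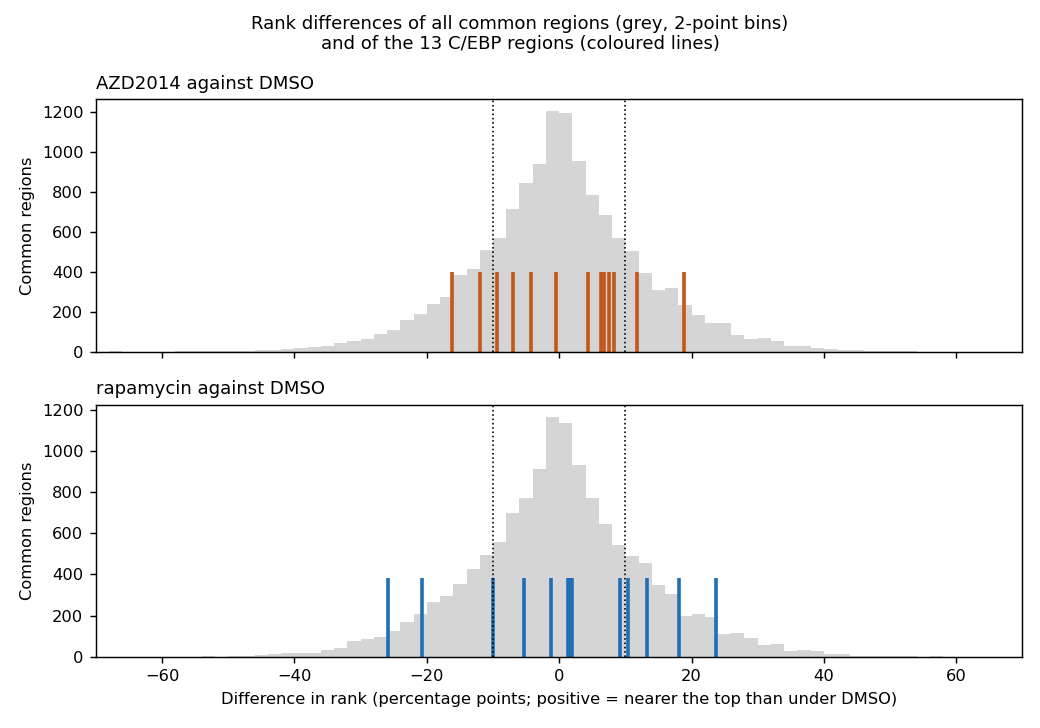
Rank difference from DMSO in percentage points on the x axis and number of common regions on the y axis, for AZD2014 (upper) and rapamycin (lower). Grey bars are all 13670 common regions and coloured lines the 13 regions of the C/EBP windows, some of them at ends of other genes. The coloured lines lie from -16.2 to 18.8 points (AZD2014) and from -25.9 to 23.6 (rapamycin). The grey ranges are -67.1 to 53.1 and -56.2 to 61.7, and 9 and 7 of the 13 lie inside the dotted limits of 10 points. Under rapamycin the lowest value is the Mzt2 end and the highest the end shared by Cebpz and Ndufaf7.

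Genes that work with C/EBP factors were counted in 6 lists of 60 genes in all. A gene-end peak was present at 32 of the 60 in the DMSO list, 35 in the AZD2014 list and 36 in the rapamycin list, which is 53.3%, 58.3% and 60% against 46.0%, 49.5% and 46.9% of all protein-coding genes, and 31 had one in every list. Those shares over all genes are the background for each list of this kind. The regulators of C/EBP genes or proteins were nearly all marked, 13 of 14 under DMSO and 14 of 14 under either drug. They include Runx1, which acts on the Cebpa enhancer, and Trib1 and Trib2, pseudokinases that lead C/EBPα to degradation. Spi1, the gene of the myeloid factor PU.1, made the difference, with a peak at 65.0% of the AZD2014 list and 93.4% of the rapamycin list. In those 10% bands, 44.5% of AZD2014 peaks and 71.6% of rapamycin peaks had no DMSO partner. Of bZIP partners and relatives, 6 of 10 had a peak under DMSO and AZD2014 and 7 under rapamycin. Ddit3 and Atf4, both genes of the stress response, ranked at 18.9% and 13.2% under DMSO, 6.06% and 2.23% under AZD2014 and 22.6% and 4.59% under rapamycin. Atf3, also a stress-response gene, ranked at 21.6%, 32.8% and 24.4%, and Dbp, a clock-controlled factor, at 27.0%, 25.8% and 18.8%. These places are in lists of unequal length and were not compared. Nfil3, a bZIP repressor, made the difference in count through the 1 kb limit only. Its rapamycin peak, 832 bp from the gene end and at 34.7% of the list, overlapped a DMSO peak 1257 bp away (34.3%) and an AZD2014 peak 1150 bp away (31.4%). Batf, Batf2 and Batf3 had none. Of transcription factors downstream of C/EBP proteins, 6 of 8 had a peak in each list, including Klf5, Irf8, Sox4 and Myc, and Gfi1 and Pparg had none. All 5 granulocyte-monocyte partners, Egr1, Klf4, Jun and Fos among them, had one in each.

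Granulocyte genes bound by C/EBP factors were the least marked, with 0 of 15 under DMSO, 1 with AZD2014 and 2 under rapamycin. Elane, Prtn3, Ctsg and Lyz2, which encode granule proteases and lysozyme, are among the 12 with none in any list. Bpi, for a bactericidal protein, had a peak under AZD2014 (82.1%), and Mpo, for myeloperoxidase, and Mmp8, for a collagenase, under rapamycin (72.8% and 94.8%). In those 10% bands, 70.9% of AZD2014 peaks, and 44.2% and 71.6% of rapamycin peaks, had no DMSO partner. Of the myeloid receptor genes, 2 of 8 had a peak under DMSO, 3 with AZD2014 and 2 under rapamycin. Csf2ra, for the GM-CSF receptor α chain, had one in every list, at 8.20%, 9.21% and 12.2%. Csf2rb, for the common β chain, had one under AZD2014 (71.3%) and rapamycin (76.0%), and Il6ra, for the IL-6 receptor, under DMSO (61.4%) and AZD2014 (50.5%). In the 10% bands of Csf2rb, 58.2% of AZD2014 and 44.2% of rapamycin peaks had no DMSO partner. In those of Il6ra, 19.3% of DMSO and 16.5% of AZD2014 peaks had no rapamycin partner. Csf3r, Csf1r, Cd14 and Il1rn had none in any list. Of the 10 neutrophil and monocyte markers, 8 are genes of these lists, and the other 2, Ly6g and Ccr2, also had no gene-end peak in any list. The T cell markers had none, with 0 of 5.

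**Figure D5:**
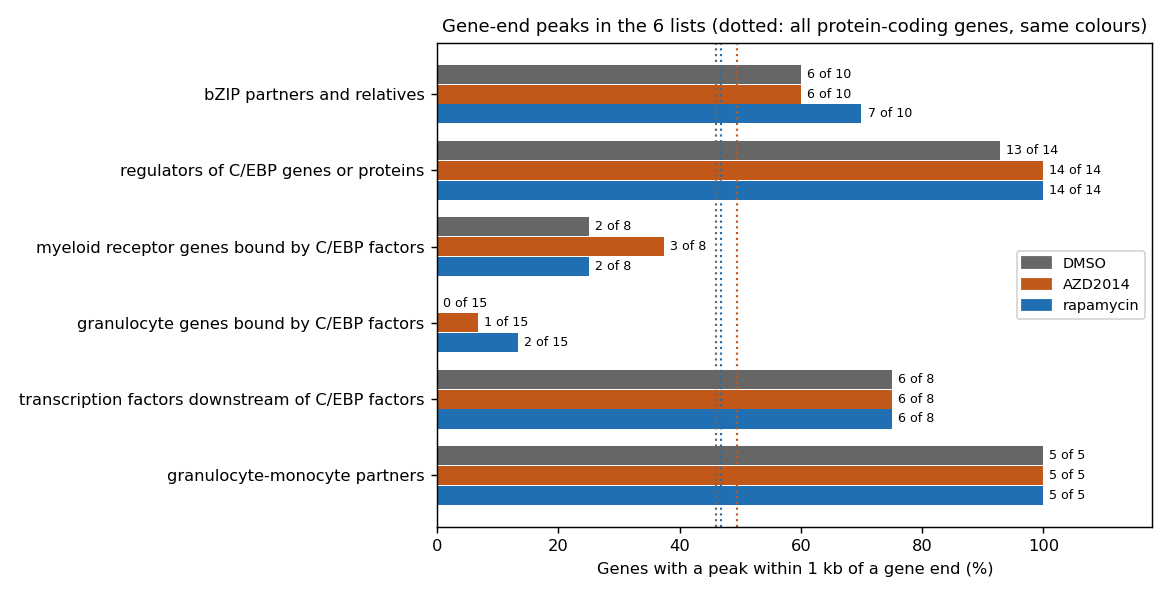
Percentage of each gene list with a gene-end peak, within 1 kb (x axis), with 1 bar per peak list and the number of genes beside it. Dotted lines give the percentage of all protein-coding genes, from 46.0 to 49.5, and the granulocyte genes lie below it at 0 to 2 of 15.

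As to the labelled cell type, gene-end peaks marked 8 of 16 HSC marker genes in the DMSO list, 9 in the AZD2014 list and 7 in the rapamycin list, close to the 46.0%, 49.5% and 46.9% of all protein-coding genes, so the counts do not set these markers apart. Kit, Meis1, Mecom and Hlf had one in every list, whereas Ly6a, Procr and Slamf1 had none. Of other cell types, 3 of 6 erythroid markers had one in every list, again near the share over all genes. Among non-blood markers 1 of 6 (16.7%) had one in every list, below that share. Of 5 B cell markers 1, 2 and 2 had one, and of 5 mast cell and basophil markers 0, 0 and 1. The part of other cell types in the C/EBP peaks was not tested.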

How the data were processed

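ATAC-seq was made on 3 libraries of 50000 cultured HSCs, 1 per group, with transposition for 30 min at 37 °C, per the labels' protocols. The authors deposited 1 peak list per library, called per sample, with a score per peak. Build mm10 and CASAVA are named in the submitters' processing notes. The peak names carry the word MACS, while settings of the caller, aligner, duplicate handling and read shift are not stated there. The deposited score has a lowest value of 50.0 in each list and was used only within a list. Depth is unknown, so no interval was given. Starts were written from 1.

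Groups came from the sample titles. Gene positions were taken from RefSeq on GRCm38.p6, the assembly that mm10 names, and strand and promoters from a RefSeq promoter table that matched 3 of the 6 genes. Peaks overlapping by 1 bp were joined into regions. Tied scores share the best rank. The overlap and rank steps were tested on copies of the DMSO list, 1 of them with peaks removed, peaks added and scores raised. No protein comparison was made. The members and lists were chosen with earlier results of these data known. Named genes were the 6 members, genes with an end at a window peak, list genes whose status differed between lists, and up to 4 examples per list in list order. Predicted genes were not named. The alternatives were other overlap rules, list lengths, score limits, peak widths, windows, gene ends and rank sets. Python 3.11.15, numpy 2.4.6, pandas 2.3.3 and matplotlib 3.10.9 were used.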

Additional observations from a re-analysis of the deposited data

How the results depend on the processing

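Each count was repeated with 1 choice changed, and 78 of 115 repeats lay within 1.5 times the reported count. The reported window peaks were 16, 18 and 15 for DMSO, AZD2014 and rapamycin. With the higher-scoring 50% of each list they were 9, 11 and 9, with 20 kb windows 8, 9 and 7, with 100 kb windows 30, 34 and 28, and with the gene body alone 5, 5 and 4. Leaving out peaks at ends of other genes only, chosen after seeing the data, kept every count within 1.5 times. The overlap rules do not enter these counts.

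Regions common to all lists, 13 as reported, numbered 6 with 20 kb, 24 with 100 kb and 4 with the gene body alone. The 3 regions under DMSO and AZD2014 without rapamycin became 0 in the higher-scoring 50%, 1 with peaks of 200 bp and 1 with the gene body alone. DMSO and rapamycin without AZD2014, 0 as reported, became 1 with lists of one length, 1 with 200 bp peaks and 1 with 100 kb. Both drugs without DMSO, 1 as reported, became 0 in the higher-scoring 50%, 0 with 20 kb, 0 with the gene body alone and 2 with 100 kb. Regions of DMSO alone, 0 as reported, became 1 with a reciprocal overlap of 50%, 1 with 200 bp peaks and 1 with 100 kb. Regions of AZD2014 alone, 1 as reported, became 2 with the reciprocal overlap, 0 with lists of one length, 2 in the higher-scoring 50%, 3 with 200 bp peaks, 5 with 100 kb and 0 with the gene body alone. Regions of rapamycin alone, 1 as reported, became 0 in the higher-scoring 50% and 0 with the gene body alone. The settings differ in the peaks kept, their width, the window or the overlap rule, and what made each count change was not tested.

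Gene-end counts for the members and the 60 pathway genes stayed within 1.5 times under all settings run. With ranks in lists of one length, 12 of the 13 regions remained. Under AZD2014, 1 region instead of 2 then stood 10 points or more farther from the top. The Mzt2 end had moved from -11.9 to -9.47, inside the limit. The other 3 counts stayed at 2, 4 and 2 with partly other members. Under AZD2014 the Tmem189 end fell to 9.42 points and the Cebpb region at -32.0 kb reached 14.6. Under rapamycin the Cebpg promoter fell to 8.30 and the Cebpb region at 35.0 kb reached 14.2. Of 50 repeated rank differences of single regions none that reached 10 points changed sign, and the Cebpb region at -32.0 kb moved from 18.0 to 30.9 points under rapamycin. No paired analysis was possible because each group has 1 library and the labels carry no replicate numbers. Unknown depth and 1 library per group limit every value, since neither the threshold's effect on weak peaks nor a spread between replicates could be measured.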
